A study of Mus musculus with 2 samples.

Results

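Trans hot spots are places where a stretch of chromosome 1 and a stretch of another chromosome were joined far more often than their coverage would give. Hi-C ligates DNA ends that lie close together in a cross-linked nucleus and sequences both sides of the junction, so each read pair is counted as a contact. Contacts on 1 chromosome (cis) are frequent at short distance and fall with distance along the DNA. Contacts between chromosomes (trans) are rare for any 1 pair of places and spread over large regions, since each chromosome keeps its own territory. Here 8 pixels of 500 kb by 500 kb were followed, at 5 places on chromosomes 2, 4, 6, 10 and 14, out of 717282 trans pixels of the proximal part of chromosome 1 with an expected count of at least 1 pair in both libraries. The pixels were chosen by their pair counts in the same libraries, so their counts and folds are a description and were not tested.

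Mouse embryonic stem (ES) cells of 2 genotypes, wild-type and *Lin28a* knockout, gave 1 Hi-C library each and were grown for 2 days on mouse embryonic fibroblast feeder cells in LIF/2i medium. *Lin28a* encodes an RNA-binding protein. The labels name neither the ES line nor how the knockout was made, so a clone or strain background that differs between the libraries cannot be told apart from the knockout. Although 2 replicates per group are mentioned in the labels, each group came as 1 list of pairs, so no difference between the groups was tested. Intervals, all 95%, describe counting error and no biological spread. Both lists were partial, and the pairs used had the first end on chromosome 1 between 3 and 90.75 Mb. Of 5767991 such wild-type pairs 2304846 were trans, and of 4412861 knockout pairs 1764698 were. A contact made strongly in a few cells and one made weakly in many cells, feeder cells included, cannot be told apart.

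The finest view of the hot spots is their sequence, since at 4 of the 5 places the pairs came from a few neighbouring restriction fragments on one of the chromosomes. The stretch that held these ends is called the anchor here, and the other side, over which the pairs spread, the broad side. The sequences come from the RefSeq copy of GRCm38, with the GATC sites in capitals, and the fragment numbers in the lists equalled the number of GATC sites up to each end within 1 site for 99.68% to 99.76% of the ends examined. The following stretches are from the fragment with the most pairs, summed over both libraries, of the anchors on chromosome 1 (hot spots with chromosomes 2 and 6) and on chromosome 14, all on the plus strand.
Hot spot with chromosome 2, chr1:83937669-83937908: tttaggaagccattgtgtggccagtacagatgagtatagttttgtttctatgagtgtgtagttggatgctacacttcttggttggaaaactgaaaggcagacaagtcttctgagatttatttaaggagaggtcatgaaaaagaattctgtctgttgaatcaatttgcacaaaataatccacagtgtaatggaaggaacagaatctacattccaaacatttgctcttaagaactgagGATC
Hot spot with chromosome 6, chr1:40915896-40916135: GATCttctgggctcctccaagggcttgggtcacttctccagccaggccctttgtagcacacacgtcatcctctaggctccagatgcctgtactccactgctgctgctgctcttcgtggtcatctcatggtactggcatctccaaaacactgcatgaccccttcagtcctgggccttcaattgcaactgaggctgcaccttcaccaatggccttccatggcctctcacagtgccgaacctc
Hot spot with chromosome 14, chr14:108339272-108339416: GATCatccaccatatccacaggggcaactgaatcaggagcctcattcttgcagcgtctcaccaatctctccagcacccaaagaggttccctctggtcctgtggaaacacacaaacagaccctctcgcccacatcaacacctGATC

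The stretch shown for chromosome 2 had 0 further matches over 90% of its length in the assembled chromosomes. It is 240 bases of a fragment of 895 bp, so this does not describe the whole fragment. The whole anchor had 58204 matches of 500 bases or more elsewhere. The stretch for chromosome 6 had 2203 matches over 90% of its length and the stretch for chromosome 14 had 826, so the fragments of chromosomes 6 and 14 are members of repeat families. Their closest copies elsewhere, apart from matches on a chromosome left out of this choice, differed at 2 of 240 and at 3 of 145 bases. A closer copy on that chromosome is not excluded. In the copies printed here, capitals now mark the bases that differ from the anchor.
Copy of the chromosome 6 hot spot stretch, chr2:121939818-121940057, minus strand: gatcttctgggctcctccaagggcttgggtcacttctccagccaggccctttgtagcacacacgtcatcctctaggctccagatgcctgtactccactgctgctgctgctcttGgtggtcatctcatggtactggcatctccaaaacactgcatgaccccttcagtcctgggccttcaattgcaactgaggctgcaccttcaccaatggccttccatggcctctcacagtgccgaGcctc
Copy of the chromosome 14 hot spot stretch, chr1:34604007-34604151, plus strand: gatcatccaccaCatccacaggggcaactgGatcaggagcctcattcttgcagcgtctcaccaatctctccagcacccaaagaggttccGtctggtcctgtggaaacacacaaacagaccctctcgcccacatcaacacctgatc

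The expectation for a pixel was the trans total of its row times that of its column over all trans pairs of the library. The hot spot with chromosome 2, whose pixel starts at 83.5 Mb on chromosome 1 and at 95 Mb on chromosome 2, held 62 wild-type and 34 knockout pairs. Its fold over the expectation was 30.5 (23.4 to 39.1) and 27.8 (19.2 to 38.8), the highest lower value of both libraries among all pixels with at least 20 pairs in each. The 4 pixels with chromosome 4 share the row that starts at 88.0 Mb on chromosome 1 and begin at 3.0, 3.5, 4.0 and 4.5 Mb. They held 125, 90, 71 and 47 wild-type pairs, and the knockout counts were 106, 61, 48 and 43, so the count fell from pixel to pixel away from the start of chromosome 4 in both. The wild-type folds were 26.2, 13.1, 12.5 and 9.45, and the knockout folds 28.0, 11.2, 10.6 and 12.

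The 3 remaining hot spots had fewer pairs. The pixel at 40.5 Mb of chromosome 1 and 5.0 Mb of chromosome 6 held 37 and 47 pairs, at 9.46-fold (6.66 to 13.0) for the wild type and 10.1-fold (7.39 to 13.4) for the knockout. The pixel at 17.5 Mb of chromosome 1 and 68.0 Mb of chromosome 10 held 27 and 23 pairs, at 9.03-fold (5.95 to 13.1) and 9.87-fold (6.25 to 14.8). The pixel at 90 Mb of chromosome 1 and 108.0 Mb of chromosome 14 held 25 and 22 pairs, at 10.5-fold (6.76 to 15.4) and 11.1-fold (6.97 to 16.8), and at 16.2-fold and 19.1-fold against a ring of neighbouring pixels. The plot of folds by pixel sets these values side by side.

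**Figure D1:**
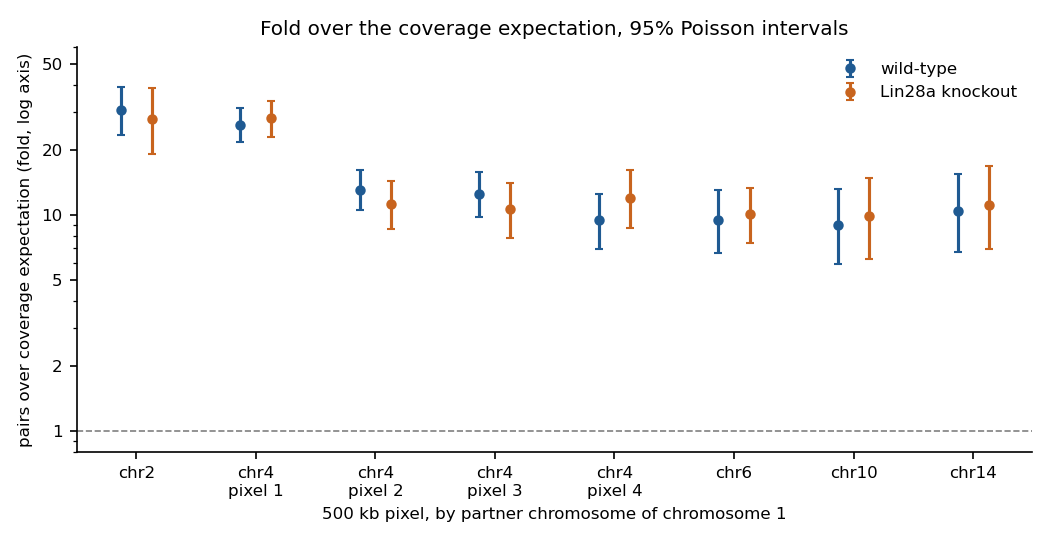
Fold of the observed pairs over the coverage expectation (log axis) in the 8 member pixels, with points for the wild-type (blue) and the knockout library (orange) and bars for the 95% Poisson intervals; the dashed line marks the expectation. In every pixel the intervals of the libraries overlap, and the pixels with chromosome 2 and at the start of chromosome 4 lie highest.

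Over all pixels tested, 14 (0.00195%) reached 5-fold and 20 pairs in both libraries, and the 8 members are among them; since the members were picked by these values, nothing is read from this share. The other 6 share a row or column with members. Of these, 5 lie further along chromosome 4 in the same row of chromosome 1, and the nearest, at 5.0 Mb, held 50 and 36 pairs at 9.79-fold and 10.3-fold, which is above the lower of both folds of 3 members. The sixth lies beside the chromosome 10 hot spot, at 17.0 Mb of chromosome 1, with 24 and 23 pairs at 6.39-fold and 7.86-fold. The first pixel by rank at another place, at 36.5 Mb of chromosome 1 and 29.0 Mb of chromosome 17, reached 2.91-fold and 3.58-fold.

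The folds of the libraries lay close together, which is partly fixed by the choice of pixels that were high in both libraries. The ratio of knockout to wild-type fold was 0.911 (0.582 to 1.41) for chromosome 2, 0.996 (0.843 to 1.18) for the 4 pixels of chromosome 4 summed, 1.06 (0.677 to 1.68) for chromosome 6, 1.09 (0.598 to 1.98) for chromosome 10 and 1.06 (0.572 to 1.97) for chromosome 14. All 5 intervals contain 1, and they leave room for differences of up to about 2-fold at the smaller hot spots. Among all 32 pixels with at least 20 pairs in both libraries, 0 (0.0%) had a ratio past 1.5 in either direction, and the median ratio was 1.125. The members are among these pixels. A pixel that differed strongly would tend to miss 20 pairs in 1 library, so this count says little about agreement. The chromosome 6 hot spot is the place where the scale mattered most. Scaled to all trans pairs in place of its own coverage, its ratio was 1.66, and 8.37% of the trans pairs of the knockout library went to chromosome 6 against 6.73% in the wild-type library.

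Each hot spot was then located at 10 kb and 5 kb. For chromosome 2 the 10 kb cell with the most pairs began at 83930001 on chromosome 1 in each library. It began at 95340001 on chromosome 2 in the wild-type library, with 9 of 62 pairs, and at 95320001 in the knockout library, with 5 of 34 pairs and 2 cells tied. At 5 kb both libraries had their peak in the cell that begins at 83935001 on chromosome 1 and 95345001 on chromosome 2, with 5 pairs (2 cells tied) and 4 pairs. For chromosome 6 both libraries had the same 10 kb peak, which begins at 40910001 on chromosome 1 and 5380001 on chromosome 6, with 4 of 37 and 8 of 47 pairs. At 5 kb they differed, with the wild-type peak at 5160001 (3 pairs) and the knockout peak at 5380001 (7 pairs) on chromosome 6.

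For chromosomes 10 and 14 the libraries placed the peak in the same 10 kb on the partner, from 68090001 and from 108330001, but in different cells on chromosome 1. These began at 17640001 and 17570001 for chromosome 10, and at 90410001 and 90430001 for chromosome 14, with 2 to 4 pairs in each peak cell and 4 cells tied for chromosome 10 in the knockout library. For chromosome 4 no peak stood out. The best 10 kb cells held 4 of 333 and 2 of 258 pairs, with 2 and 23 cells tied, so the position of this peak and the genes in it say little.

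The spread of the pairs of a pixel around its peak was read on both chromosomes together. What sets this spread was not tested. Within 25 kb of the peak of the summed libraries on both sides lay 35.5% (23.7% to 48.7%) of the wild-type pairs and 44.1% (27.2% to 62.1%) of the knockout pairs of the chromosome 2 pixel. The values were 27.0% and 29.8% for chromosome 6, 33.3% and 17.4% for chromosome 10, where the summed peak held 4 pairs with 2 cells tied, 28.0% and 27.3% for chromosome 14, and 1.20% and 1.94% for chromosome 4. Around the peak of the other library the wild-type share for chromosome 10 was 3.70%. Outside chromosome 4, the spread lay mainly on 1 side, and on the other side most ends fell into a short anchor. At the chromosome 4 hot spot the ends were spread on both sides, over 135 and 121 fragments in its anchor on chromosome 1.

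The anchor of the chromosome 2 hot spot ran from 83936181 to 83939125 on chromosome 1, which is 2945 bp or 0.589% of the pixel length. All anchors were placed from the pairs counted here, so high shares inside them and low counts beside them are partly fixed by that choice. The chromosome 2 anchor held 60 of 62 wild-type pairs (96.8%, 88.8% to 99.6%) and 32 of 34 knockout pairs (94.1%, 80.3% to 99.3%). With the 2 Mb to either side of the centre it had 99 wild-type and 70 knockout pairs. Taken from each library alone, the anchor ran from 83936181 to 83939109 for the wild type and from 83936269 to 83939125 for the knockout. Its ends came from 10 GATC fragments in each library.

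The anchor of the chromosome 6 hot spot was 1573 bp long, from 40915259 to 40916831 on chromosome 1. It held 36 of 37 wild-type pairs and 42 of 47 knockout pairs of the pixel, and its edges differed by few bases between libraries (40915264 to 40916831 in the wild-type and 40915259 to 40916826 in the knockout library). The 2 hot spots with chromosomes 10 and 14 had the anchor on the partner and the broad side on chromosome 1. The chromosome 14 anchor was 1005 bp long, from 108339197 to 108340201, and held 22 of 25 and 21 of 22 pairs, from 3 fragments. The chromosome 4 hot spot differed in size. Its anchor on chromosome 1 ran over 98622 bp, from 88212005 to 88310626, with 332 of 333 wild-type pairs (99.7%, 98.3% to 99.99%) and 253 of 258 knockout pairs (98.1%, 95.5% to 99.4%). Taken from each library alone, the rule of gaps of at most 3 kb gave 88212016 to 88310596 (98581 bp) for the wild type and a shorter run, 88223178 to 88292404 (69227 bp), for the knockout, although knockout pairs also lay outside that run, with 25 in the first and 31 in the last 9.86 kb of the full anchor. The windows of the same length beside it held 0 and 0 wild-type pairs and 0 and 2 knockout pairs.

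**Figure D2:**
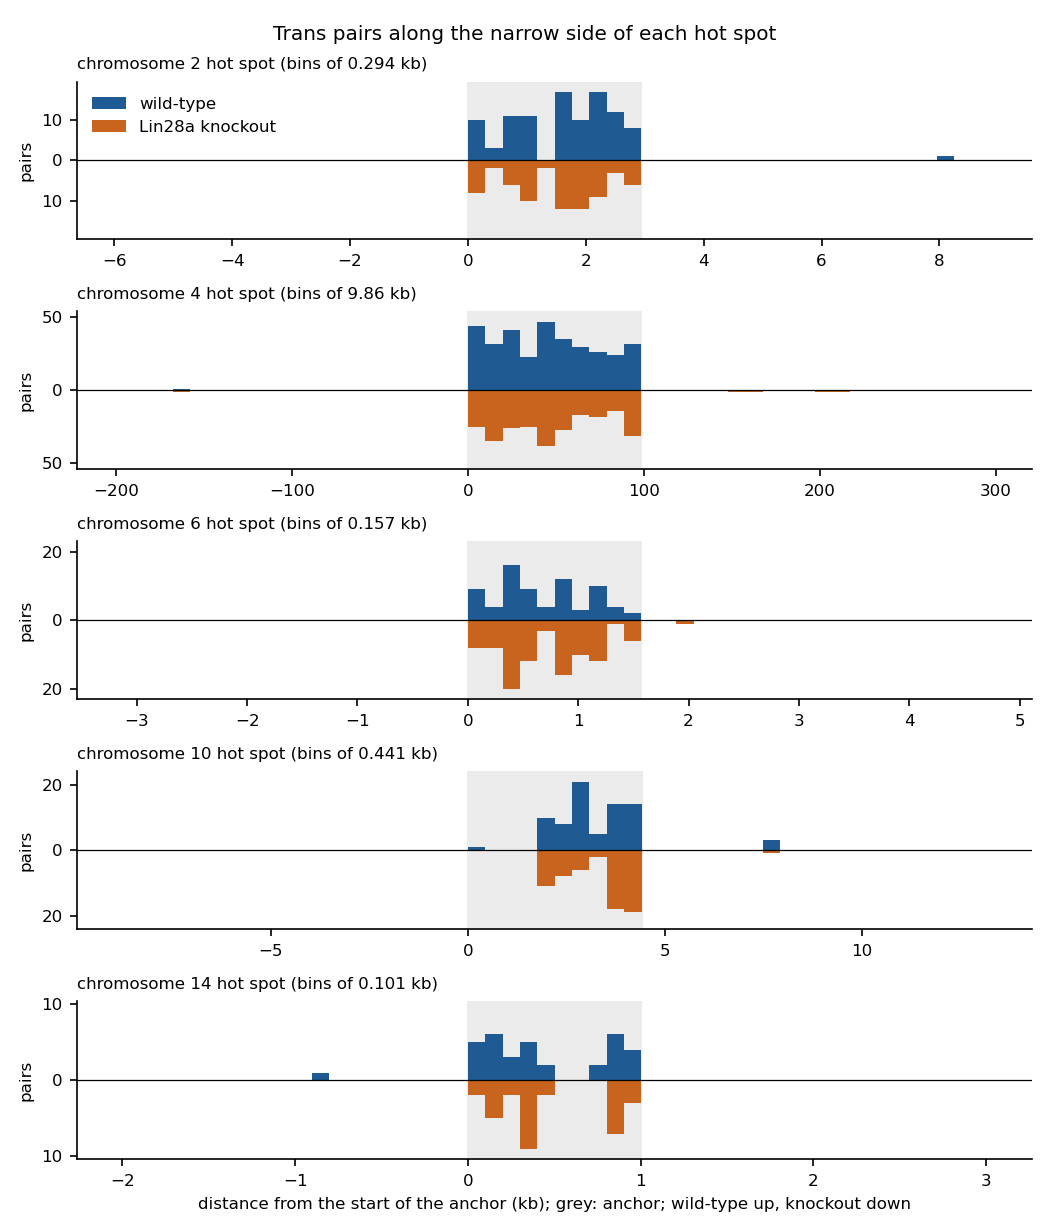
Pairs between each anchor region and the 2 Mb to either side of the centre of its broad side, or for chromosome 4 the first 2 Mb of sequence, by distance of the anchor end from the anchor start (kb), for the wild-type library (upward bars) and the knockout library (downward bars); grey marks the anchor. Nearly all bars of both libraries lie over the same anchors, though the lower part of the chromosome 10 anchor is almost empty. The chromosome 4 anchor, at 98622 bp, is far longer than the others.

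The anchor on chromosome 10, from 68094266 to 68098670 (4405 bp), held 23 of 27 and 20 of 23 pairs and lay in an exon; its lower edge came from 1 wild-type end. *Arid5b*, a DNA-binding cofactor of transcription with an ARID domain, lies on the minus strand of chromosome 10 from 68092520 to 68278740. Its last exon, which holds the end of the coding sequence and the 3′ UTR, ends at 68098669 on the side of the preceding intron and is annotated with 3 alternative lengths. From the second longest form, at 68096016 to 68098669, came 72 wild-type and 63 knockout pairs, 27.1 and 23.7 pairs per kb. The 3496 bp found only in the longest form had 1 and 0 pairs.

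The intron before this exon, 3225 bp long, had 0 and 1 pairs, and the single end lay 1 base past the exon. The next exon upstream, from 68101895 to 68102093, had 3 and 1 pairs although it is only 199 bp long. Across the whole gene, of whose length exons take 5.40%, 77 of 81 wild-type pairs and 65 of 69 knockout pairs with the 2 Mb around the centre on chromosome 1 had their *Arid5b* end in an exon. Nearly all of these lay in the last exon, from which the anchor was found. Outside it, 4 and 2 ends were exonic and 4 and 4 intronic. The stretch around the annotated border of the last exon held 0 wild-type and 2 knockout ends. It follows in the direction of transcription, with the intron in lower case and the coding start of the exon in capitals.
Arid5b intron and last exon, chr10:68098580-68098759, minus strand: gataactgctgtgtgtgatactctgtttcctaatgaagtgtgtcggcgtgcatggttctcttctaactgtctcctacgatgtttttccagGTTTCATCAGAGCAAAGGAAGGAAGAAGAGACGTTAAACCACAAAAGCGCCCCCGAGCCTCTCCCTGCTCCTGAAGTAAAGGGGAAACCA

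**Figure D3:**
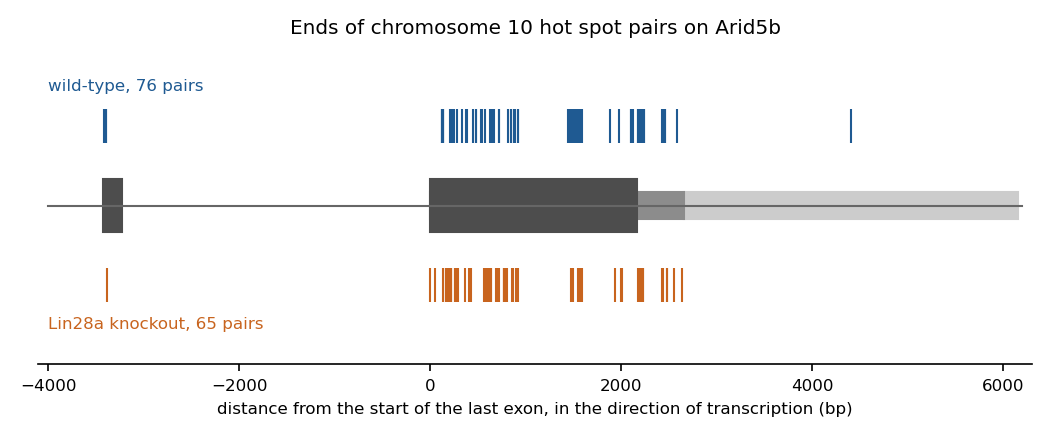
Ends of chromosome 10 hot spot pairs on the last exons of Arid5b, by distance in bp from the start of the last exon in the direction of transcription, with 1 tick per pair (wild-type above, knockout below); tall dark boxes are coding, and the low boxes show the UTR of the second longest (dark grey) and longest form (light grey). Ticks fill the last exon up to the end of the second longest form, leave the intron empty save for 1 knockout end at its border, and recur in the preceding exon with 3 and 1 pairs.

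For the hot spots other than chromosome 4 a centre of the broad side was estimated as the position with the smallest summed log distance to the pairs. For chromosome 2 it lay at 95350000 in the wild-type and 95345000 in the knockout library, and for chromosome 6 at 5385000 in both. For chromosome 10 it lay on chromosome 1 at 17640000 and 17585000, and for chromosome 14 at 90415000 and 90435000. Within 2 Mb of the centre, 43 and 56 wild-type pairs and 40 and 30 knockout pairs of the chromosome 2 hot spot lay below and above it. The chromosome 6 hot spot was less even, with 48 and 25 wild-type pairs and 71 and 25 knockout pairs below and above its centre. The chromosome 10 hot spot had 34 and 39 wild-type and 38 and 26 knockout pairs. For chromosome 14, with 24 and 9 and with 19 and 11 pairs, the upper side was cut by the end of the range used at 90.75 Mb.

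Pair density fell along the broad side. The centre was placed from these same pairs, so a high first bin is partly fixed by that choice. The chromosome 2 anchor had 340 wild-type pairs per Mb (34 pairs) and 200 knockout pairs per Mb (20 pairs) within 50 kb of the centre. From 500 kb to 1 Mb it had 20 and 18 pairs per Mb, and more than 20 Mb away 0.331 and 0.237. The chromosome 6 anchor went from 100 and 180 pairs per Mb within 50 kb to 0.0643 and 0.0885 beyond 20 Mb. The chromosome 10 anchor had 110 pairs per Mb in both libraries within 50 kb, and 0.339 and 0.188 beyond 20 Mb. The chromosome 14 anchor had 110 and 70.0 pairs per Mb near the centre and 0.133 and 0.0742 far from it.

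For chromosome 4 no centre was estimated, and distances were taken from the first sequenced base. The sequenced part of chromosome 4 begins at 3050001, at the centromere end of the chromosome, and the pair density of the anchor was highest in the first 50 kb, with 500 wild-type and 380 knockout pairs per Mb. It was 160 and 260 at 50 to 100 kb, 160 and 230 at 100 to 200 kb, 300 and 210 at 200 to 500 kb, 105 and 88.0 at 1 to 2 Mb, 34.0 and 26.8 at 5 to 10 Mb, and 25.6 and 21.0 at 10 to 20 Mb. Beyond 20 Mb it was 7.34 and 4.62, so the whole proximal 20 Mb of chromosome 4 stood above the rest, 3.49-fold and 4.54-fold in its outermost bin. The 4 member pixels are thus the densest part of a longer stripe.

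**Figure D4:**
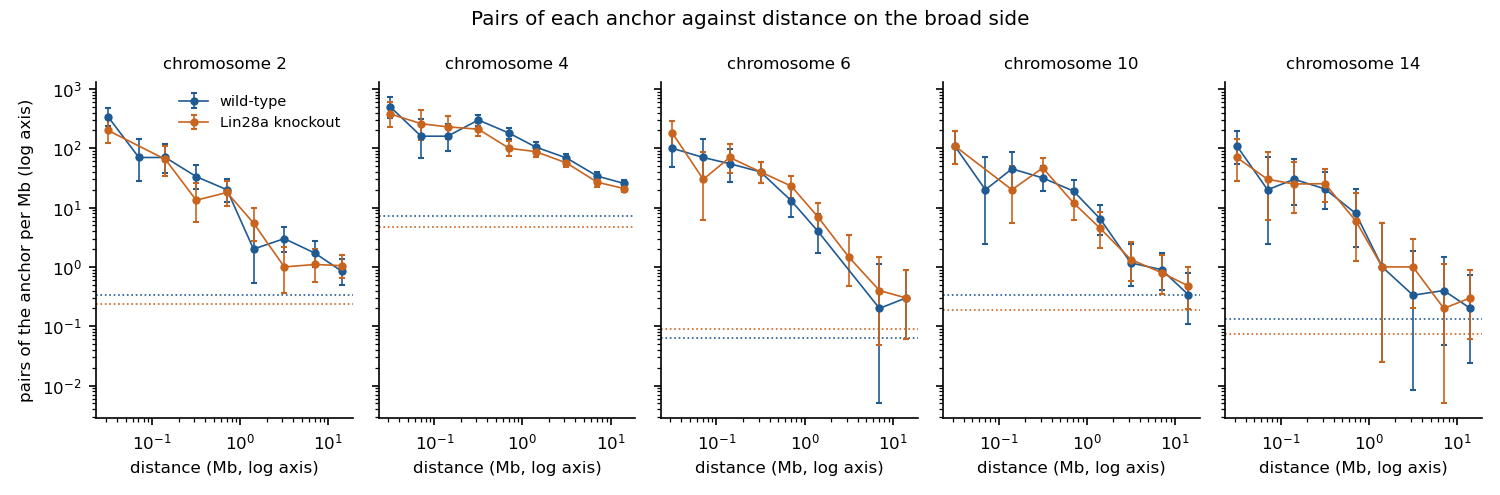
Pairs of each anchor per Mb of the broad side (log axis) against the distance from its centre, or for chromosome 4 from the first sequenced base (Mb, log axis), with 95% Poisson bars, the wild-type library in blue and the knockout library in orange; bins with 0 pairs are not drawn and dotted lines give the density more than 20 Mb away. All 5 curves fall with distance over their whole range, though not in every bin, and the chromosome 4 curve is the slowest to fall, still at 25.6 and 21.0 pairs per Mb in its last bin.

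For the 3 anchors on chromosome 1, the partner took a far larger share of trans pairs, relative to its share of all trans pairs, than any other chromosome. The anchors were placed from pairs with that partner, and these pairs are counted here. An excess with the partner was thus built into the choice, and the values are a description. Of the 359 wild-type trans pairs of the chromosome 2 anchor, 197 (54.9%) went to chromosome 2, which took 7.30% of all trans pairs, a 7.52-fold excess (8.59-fold in the knockout library, with 141 of 240 pairs). The next chromosome by relative share stood at 0.704-fold and 1.14-fold, the latter from 7 pairs with chromosome X. These are shares of the trans pairs of the anchor, so a large share for the partner lowers those of all other chromosomes. They do not show that an anchor had few pairs with other chromosomes. For the chromosome 6 anchor 85 of 137 and 117 of 170 trans pairs went to chromosome 6, at 9.22-fold and 8.22-fold, with the next chromosome at 0.905-fold and 0.916-fold. For the chromosome 4 anchor 1945 of 8224 and 1387 of 5943 pairs went to chromosome 4, at 3.85-fold and 4.03-fold, with the next at 0.891-fold and 0.882-fold. The pairs used here show the anchors on chromosomes 10 and 14 only through their pairs with chromosome 1. Of these, 73 of 112 and 64 of 97 lay within 2 Mb of the centre for chromosome 10, which is 4.56% of the length used. For chromosome 14 the counts were 33 of 47 and 30 of 42, in 2.66% of that length. The centres were placed from these same pairs.

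Counts of pairs within chromosome 1 played no part in how the hot spots were found, and they give a scale for the stripes. The trans pairs, however, are those from which the pixels, anchors and centres were chosen. High ratios of trans to cis are thus partly fixed by that choice, and their intervals cover counting error only. Between 20 kb and 2 Mb, the chromosome 2 anchor had 79 wild-type trans pairs around the centre and 149 cis pairs around itself, and the knockout counts were 60 and 119. Per Mb the trans stripe was thus 0.530 (0.398 to 0.701) and 0.504 (0.363 to 0.693) times as dense as the cis contacts of the same DNA at the same distance. For the chromosome 6 anchor the stripe was denser than the cis contacts, 1.85-fold (1.20 to 2.901) and 3.15-fold (2.02 to 5.05), from 63 against 34 and 85 against 27 pairs. For the chromosome 4 anchor the ratio between 100 kb and 10 Mb was 0.318 (0.292 to 0.344) and 0.320 (0.291 to 0.351). It was 0.174 and 0.150 at 200 to 500 kb, and 0.914 and 0.978 at 5 to 10 Mb.

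**Figure D5:**
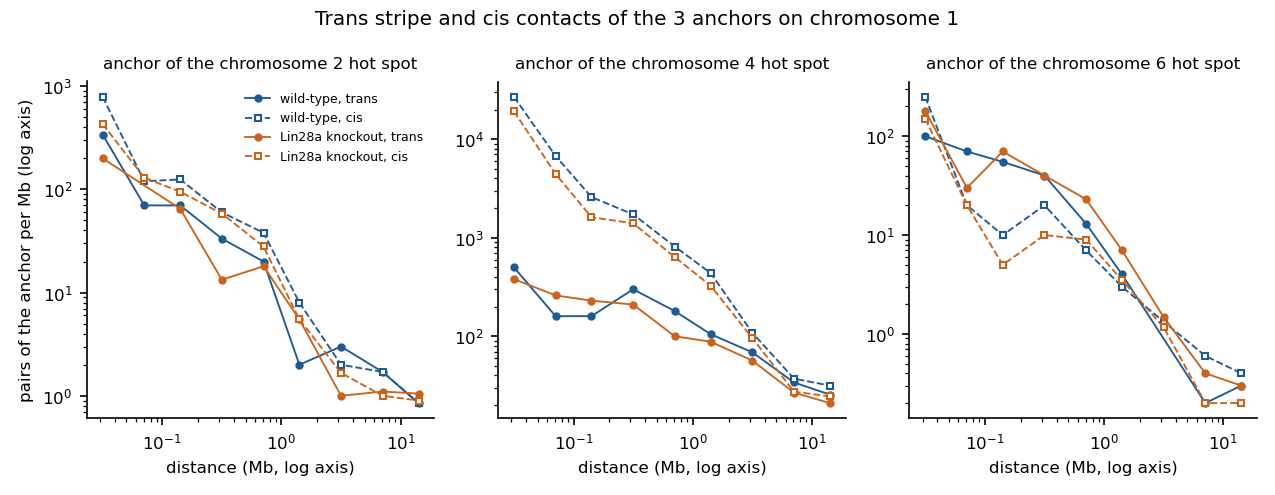
Pairs per Mb (log axis) of the 3 anchors on chromosome 1 with their partner chromosome (filled circles, solid lines) and within chromosome 1 (open squares, dashed lines) against distance (Mb, log axis), for the wild-type library in blue and the knockout library in orange. The trans curve runs below the cis curve up to 1 Mb for chromosome 2, nears it only past 5 Mb for chromosome 4, and lies above it between 50 kb and 2 Mb for chromosome 6.

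The cis contacts of the anchors were also set against 6 neighbouring windows of the same length. The chromosome 2 anchor had 149 and 119 cis pairs, against a median of 132 (105 to 170) and 104.5 (74 to 152) in its neighbours, and lay inside their range in both libraries. The chromosome 6 anchor, with 34 and 27 pairs, lay below the lowest neighbour (45 and 35). The chromosome 4 anchor, with 4264 and 3298 pairs, lay just above the highest (4228 and 3217). Relative to the median of the neighbours, trans pairs with chromosomes other than the partner stood higher than cis pairs for all 3 anchors in both libraries, at 2.38 and 1.78 against 1.13 and 1.14 for chromosome 2, 2.36 and 2.37 against 1.16 and 1.18 for chromosome 4, and 1.18 and 1.61 against 0.591 and 0.701 for chromosome 6. The chromosome 2 anchor had 162 and 99 such pairs against 55 to 96 and 27 to 71 in the neighbours, and the chromosome 4 anchor had 6279 and 4556 against 2003 to 3371 and 1570 to 2569. The chromosome 6 anchor, with 52 and 53, lay inside the range of its neighbours in the wild-type library (28 to 74) and above it in the knockout library (23 to 49).

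Mapping quality, which scores how securely a read end was placed, was set against that of all trans pairs, of which 86.0% of the wild-type and 84.8% of the knockout pairs had a score of 30 or more at both ends. At 4 of the 5 stripes the share was 57.3% to 75.8%, and for chromosome 14 it was 90.9% and 83.3%. Over the pixels alone, the intervals lay below the values of all trans pairs in both libraries for chromosome 4 (57.0% to 67.7% and 59.8% to 71.7%) and for chromosome 6 (47.5% to 79.8% and 52.9% to 80.9%). Within the stripe, 66.8% and 72.3% of the ends in the chromosome 4 anchor reached this score, against 93.4% and 90.2% of the ends on the broad side. Other pairs of the same anchor had higher scores, with 82.1% and 81.6% for pairs with other chromosomes and 87.9% and 87.3% for cis pairs. The same order held for the chromosome 6 anchor (65.8% and 59.4% in the stripe, 75.0% and 71.7% with other chromosomes) and for the chromosome 2 anchor (76.8% and 78.6%, against 87.7% and 86.9%).

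The chromosome 10 anchor had 61.6% (49.5% to 72.8%) and 78.1% (66.03% to 87.5%) of its ends at a score of 30 or more. The chromosome 14 anchor had 90.9% and 93.3%, close to the 92.5% and 91.8% over all partner ends. Pairs with the top score of 42 at both ends were present in 3 stripes, with 43 and 27 pairs for chromosome 2, 91 and 69 for chromosome 4 and 22 and 28 for chromosome 10, and numbered 0 in both libraries for chromosomes 6 and 14. Whether the placement of reads takes part in the stripes was not tested. Nearly every pair joined a different pair of fragments. The 99 and 70 pairs of the chromosome 2 stripe were 98 and 69 distinct fragment pairs, and the 334 and 256 of chromosome 4 were 333 and 255. For chromosome 6, 73 and 96 pairs were 72 and 94, for chromosome 10, 73 and 64 were 72 and 64, and for chromosome 14 all 33 and 30 were distinct. Pairs of all 5 stripes were present in both sequencing runs of each library, but the smaller runs were thin, with 5 to 34 wild-type and 1 to 12 knockout pairs per stripe. There were 300 and 34 chromosome 4 pairs in the larger and smaller wild-type run, of 2102860 and 201986 trans pairs, and 244 and 12 in the knockout runs, of 1689343 and 75355.

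The anchors had different sequence content. The chromosome 6 and chromosome 14 anchors lay wholly in bases masked as repeats in the reference (100% each), and 1732 and 178 matches covered at least 80% of their length elsewhere in the genome. The chromosome 2 anchor was masked over 33.1% and the chromosome 4 anchor over 17.6%, with 0 such matches for each. Shorter copies were common, with 58204 matches of 500 bases or more elsewhere for the chromosome 2 anchor (16561 of them at 95% identity or more) and 445 for the chromosome 4 anchor (157). The chromosome 10 anchor was masked over 11.5% and had 0 matches of 500 bases or more. In the 1 Mb to either side of the broad centre, the chromosome 10 anchor had 0 matches and the chromosome 14 anchor had 1, of 267 bases. The chromosome 6 anchor had 32 matches there, the longest of 1578 bases. The chromosome 2 anchor, and the chromosome 4 anchor in the first 1 Mb of chromosome 4, each had more matches than that, with longest matches of 883 and 399 bases. GC content was 40.7% to 49.8% over the 5 anchors.

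Genes differed as much as sequence. The pixel of chromosome 2 held 0 protein-coding genes on both sides. Its peak cell lies between *Sphkap*, which encodes a kinase-anchoring protein, 521.8 kb away, and *Pid1*, 96.3 kb away, on chromosome 1. On chromosome 2 the nearest genes are *Api5*, an inhibitor of apoptosis, at 901.9 kb, and *Lrrc4c*, a netrin-G ligand of neurons, at 968.2 kb. The 10 kb peak cell of chromosome 6 fell between *Tmem182* (53.1 kb) and *Pou3f3*, a neural transcription factor (1776 kb), on chromosome 1. On chromosome 6 it overlapped an exon of *Asb4*, an ankyrin repeat and SOCS box gene. That cell held 12 of 84 summed pairs, and the wild-type 5 kb peak lay elsewhere, from 5160001 with 3 pairs.

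On chromosome 1, the summed peak cell of the chromosome 10 hot spot overlapped exons of *Pi15*, a secreted peptidase inhibitor, and of the antisense gene *Gm28154*. That cell was 1 of 2 tied cells with 4 pairs. The libraries alone had their peaks from 17640001 (wild-type) and, with 4 cells tied, from 17570001 (knockout), so the genes at this peak say little. The chromosome 14 peak lay between *Ackr3*, an atypical chemokine receptor, and *Cops8*, a subunit of the COP9 signalosome, at 193.2 and 183.0 kb on chromosome 1, and between *Trim52* and *Slitrk1*, a neuronal membrane protein, at 2194 and 568.8 kb on chromosome 14. The chromosome 4 pixels shared a gene-rich row with 16 protein-coding genes on chromosome 1 and had 2, 9, 3 and 1 on chromosome 4. The summed peak cell there overlapped the shared 3′ exons of the *Ugt1a* cluster, among them *Ugt1a1*, the enzyme that conjugates bilirubin, and on chromosome 4 the long noncoding gene *AI838599*. That cell was 1 of 6 tied cells with 4 of 591 pairs. The libraries alone had their peaks from 4480001 (wild-type) and 3130001 (knockout) on chromosome 4, so the genes at this peak say little. The anchor of the summed libraries, whose genes were chosen after its position was known, also covered *Mroh2a*, *Hjurp*, the chaperone of the centromeric histone CENP-A, and the start of *Trpm8*, a cold-sensing ion channel.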

How the data were processed

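Hi-C of 1 wild-type and 1 *Lin28a* knockout library of mouse ES cells was read from the deposited lists of valid pairs. The submitters' processing notes name CASAVA 1.8, Bowtie2, HiC-Pro and the build mm10, while settings and the restriction enzyme are not given in the sources used here. In the deposited lists the first end's mapping quality score was never below 11, and alternate strain contigs were among the targets. The wild-type list ended at 90862049 on chromosome 1, so first ends from 3 to 90.75 Mb were used. Pairs were counted with pandas 2.3.3 and scipy 1.17.1, with exact Poisson, Clopper-Pearson and binomial-split intervals at 95%. The anchor was the largest run of ends with gaps of at most 3 kb, without edge fragments of under 2 pairs, read over the pixels and 1 Mb to either side. These steps were tested on simulated data. Copies were sought with BLAST 2.17.0 in GRCm38.p6, and genes came from GENCODE M21. Genes named were those in the 10 kb peak cells or, where there were none, the nearest protein-coding gene on each side. For chromosome 4, further genes over the anchor were named after its position was known. The pixels and the measures were chosen with earlier results of these data known.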

Additional observations from a re-analysis of the deposited data

How the results depend on the processing

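With 1 library per group no replicate could be left out, and no paired analysis was possible because each group is 1 list. No knockout to wild-type ratio left its counting interval under any of the 5 alternatives, and 42 of 50 alternative folds stayed within theirs. The fold of the chromosome 4 pixels was 12.2 (wild-type) and 12.7 (knockout) with mapping quality of 30 or more, 17.4 and 17.2 with the member pixels left out of the totals, and 18.9 and 20.5 against a ring of neighbouring pixels. Against that ring the chromosome 14 fold was 16.2 (wild-type) and 19.1 (knockout). The share near the peak was 56.5% within 50 kb for chromosome 2 (wild-type) and 5.04% for chromosome 4 (knockout). It was 4.20% around the 5 kb peak for chromosome 4 (wild-type), and around the peak of the other library 0.388% for chromosome 4 (knockout) and 3.70% for chromosome 10 (wild-type). For these last values the peak cells themselves held at most 4 pairs. The share of pixel pairs in the anchor, whose 3 alternatives were added after seeing the data, left its interval 1 time in 30, at 100% for chromosome 6 in the larger wild-type run. Depth limits the ratios of the smaller hot spots, with 22 to 47 pairs each.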

Other observations

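The knockout list runs further along chromosome 1 than the wild-type list, and there the chromosome 14 anchor had 3 pairs between 90.75 and 92.42 Mb (1.802 per Mb) and 4 pairs over the 85.06 Mb that lie more than 20 Mb above the centre (0.0470 per Mb). The first density rests on 3 pairs and was not tested.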
